A study of Mus musculus with 40 samples.

Results

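The 7 genes described here make, break down, carry or respond to the vitamin D hormone, or take part in the Klotho axis that acts on it. They are Cyp2r1, Cyp27b1, Cyp24a1, Vdr, Kl, Gc and S100g, and every probe set that the platform annotation names for one of them was taken. This gave 9 probe sets for 6 genes, of 45037 probe sets and 18193 gene symbols on the array. The annotation used here names no probe set for Gc, which encodes the plasma vitamin D binding protein, and Gc was therefore not analysed here.

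Vitamin D from skin or diet is hydroxylated in the liver, mainly by CYP2R1, and is then carried by the binding protein to the kidney. There CYP27B1 of the proximal tubule adds the 1-alpha hydroxyl group that yields the active hormone, and CYP24A1 starts its degradation. The hormone acts through the nuclear receptor VDR, which pairs with a retinoid X receptor and induces Cyp24a1, so that the hormone limits its own level. Klotho, the product of Kl, is the co-receptor through which FGF23 lowers Cyp27b1, raises Cyp24a1 and promotes phosphate loss. Calbindin-D9k, the product of S100g, is a calcium-binding protein of the intestine and the distal part of the nephron. In patients, long use of phenobarbital and other enzyme-inducing anticonvulsants is known to go along with low vitamin D, which is why these genes are of interest in mice given the drug.

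Phenobarbital (PB), an anticonvulsant that induces drug-metabolizing enzymes through the receptor CAR, was drunk as a 0.05% (w/v) solution over 28 days by 10 male B6C3F1/Crl mice, and 10 control mice of the same cross (C57BL/6 male by C3H/He female) received no PB. The mice were 29 to 32 days old and were acclimatised for 5 days, and no tumour initiator was given. Liver and kidney RNA of each animal was measured on its own Affymetrix Mouse430_2 array, so that there were 4 groups of 10 arrays, namely PB kidney, control kidney, PB liver and control liver. The values are MAS5 signals, linear intensities without a unit that the authors scaled to a trimmed mean of 150 on every array, and a group mean of 50 is the level from which the study's methods kept a probe set.

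The median signal of the 40 arrays lay between 30.0 and 37.2. Kidneys carried mean signals of at least 50 for 8 of 8 proximal tubule, 4 of 4 thick ascending limb and 6 of 6 distal tubule markers in both treatment groups, and livers for 7 of 7 hepatocyte markers. The markers were not all confined to 1 tissue. Of the 7 hepatocyte markers 3 also reached 50 in both kidney groups. Of the 8 proximal tubule markers 2 did so in PB livers and 4 in control livers. Cyp2b10, the classical PB-induced P450, averaged 11482 ± 1067 in PB livers and 25.4 ± 9.84 in control livers (SD, n = 10 each), and 32.6 ± 10.1 in PB kidneys and 44.5 ± 7.99 in control kidneys. The liver of control animal 5 stood apart with a signal of 1230 for Kap, an abundant transcript of the proximal tubule whose highest signal in another liver was 234. The kidney of PB animal 19 had the highest kidney signal of Cyp3a11 (641.6) and of albumin (1029.6), which are hepatocyte transcripts. Albumin was also raised in the kidneys of control animals 3 (922.8), 9 (735.8), 1 (582.7) and 10 (416.1). In the remaining kidneys it was at most 195.4. Apoa1, another hepatocyte transcript, gave 177.1 in the kidney of PB animal 19 and 63.3 to 124.1 in those control kidneys. The part of these transcripts in the members' kidney values was not tested.

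The 100 bases before the start of 5 of the genes are shown because their transcripts lay on opposite sides of the detection level in the 2 tissues. The sequences are RefSeq's on GRCm38.p6, each on the strand of its gene (6 of the 7 genes matched the promoter table, Cyp24a1 did not). For Cyp2r1 the promoter table counts from a start inside the gene as annotated, so that 76 of the 100 bases shown lie within the gene, while the other stretches end where their gene begins. Capitals mark a TATA box on the strand of the gene (written TATAAA, or in the variant form TATATA), a GC box (GGGCGG on either strand) or a nuclear receptor motif on either strand. This motif was searched as AGGTCA, as a variant form written AGTTCA, as a variant form written GGGTCA, and as a variant form written GGTTCA.
Cyp27b1, chr10:127048146-127048245: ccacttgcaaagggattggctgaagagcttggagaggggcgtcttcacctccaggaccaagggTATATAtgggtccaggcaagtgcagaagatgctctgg
Cyp2r1, chr7:114562973-114563072: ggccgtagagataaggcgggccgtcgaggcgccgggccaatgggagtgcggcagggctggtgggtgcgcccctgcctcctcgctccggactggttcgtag
Vdr, chr15:97908297-97908396: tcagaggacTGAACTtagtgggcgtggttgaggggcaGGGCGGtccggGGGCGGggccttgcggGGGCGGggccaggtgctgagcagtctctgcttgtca
Kl, chr5:150952507-150952606: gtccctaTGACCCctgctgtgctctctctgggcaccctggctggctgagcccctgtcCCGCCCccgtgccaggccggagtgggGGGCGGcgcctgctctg
S100g, chrX:162964600-162964699: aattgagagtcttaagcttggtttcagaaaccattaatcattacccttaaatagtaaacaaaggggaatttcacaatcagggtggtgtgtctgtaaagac

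Among the 6 matched genes, a TATA box was found in the 250 bases before the start of Cyp27b1 alone, with its first base at position -37 (the base before the start being -1), while 11.5% of 32851 RefSeq promoters hold one in that window. GC boxes lay in the Vdr promoter, with 3 copies, and in the Kl promoter, with 2 copies, and 32.7% of promoters hold at least 1. The receptor motif occurred once each before Cyp2r1, Vdr and Kl and 3 times before S100g, and 38.6% of promoters hold it. No promoter of the 6 held the motif as a direct repeat spaced by 3 bases, the arrangement that VDR and its partner are known to bind, and 0.0396% of all promoters do. The G and C content of the 250 bases was 66.8% for Kl, 61.6% for Cyp2r1, 61.2% for Vdr, 54.4% for Cyp27b1, 42% for Gc and 38.4% for S100g, against a median of 52.4% over all promoters.

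**Figure D1:**
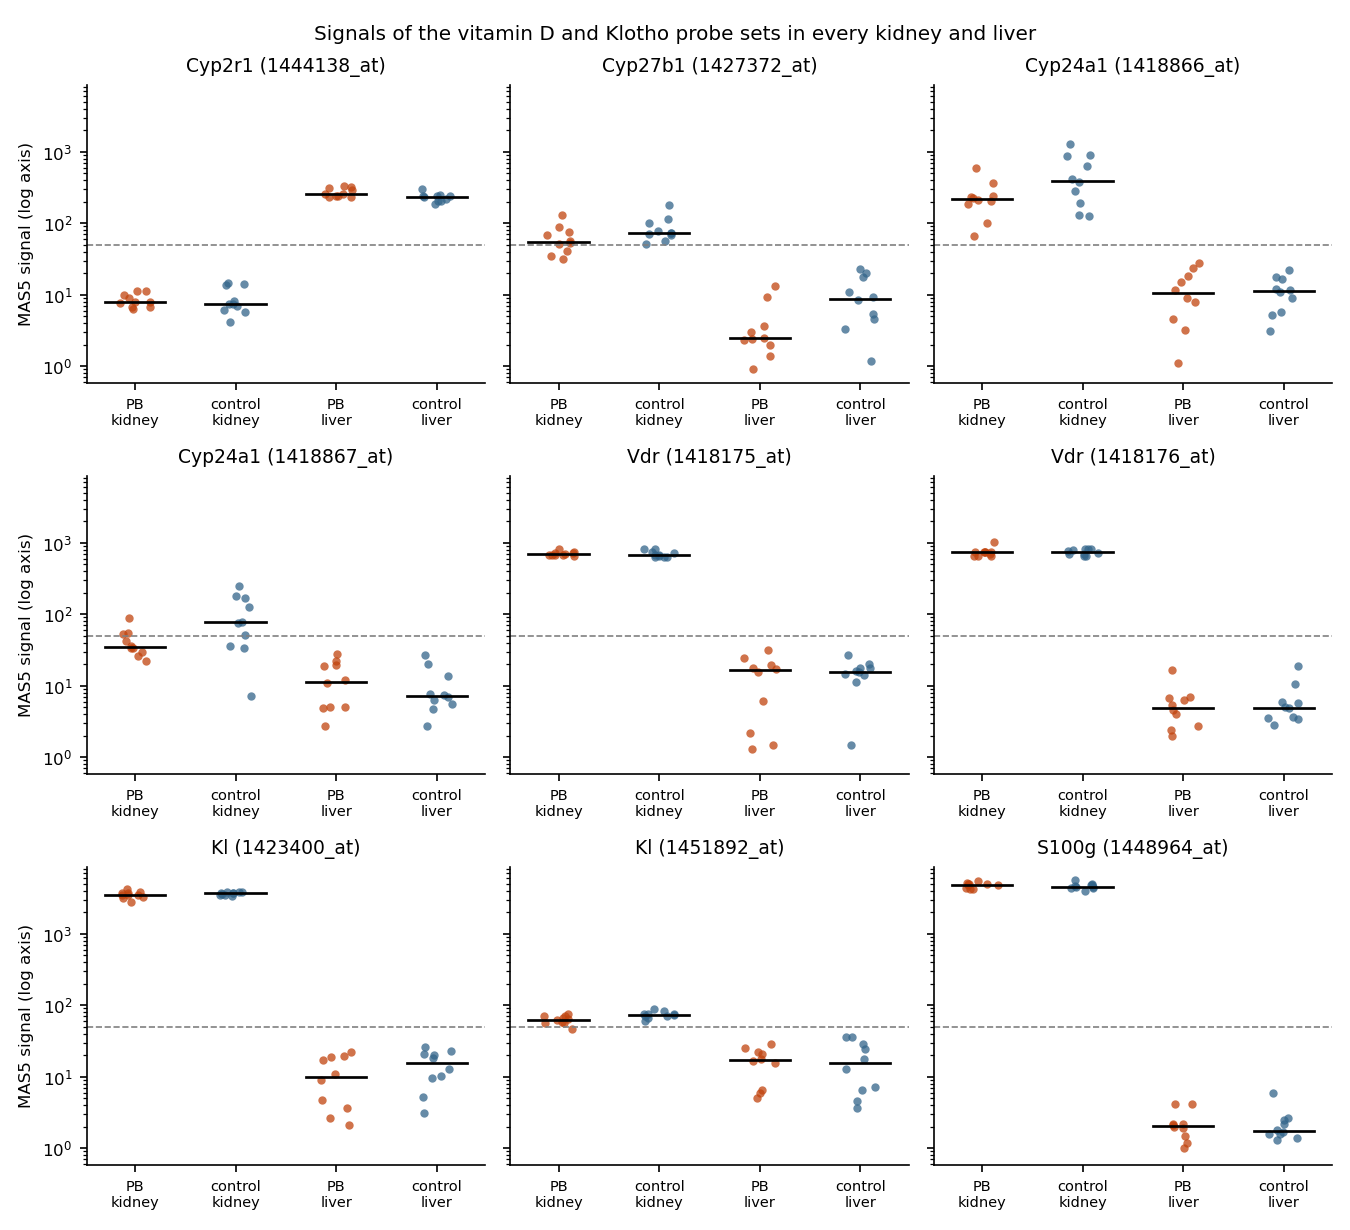
MAS5 signals of the 9 probe sets (log axis) in PB kidneys, control kidneys, PB livers and control livers; each point is 1 animal, bars are group medians and the dashed line is a signal of 50. Cyp2r1 lay above the line in the livers alone, 7 other probe sets had group means above it in both kidney groups, and the second Cyp24a1 probe set averaged 41.8 in PB kidneys and 100 in control kidneys.

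The members divided by tissue, which checks the arrays against the known sites of these genes. Kidney was compared with liver in a fit of all 40 arrays (limma on log2 signal, probe sets whose mean reached 50 in 1 of the 4 groups; a call is a Benjamini-Hochberg adjusted p below 0.05). In PB mice 9 of 9 member probe sets were called, 8 higher and 1 lower in kidney, where 79.2% of 21866 probe sets were called (44.4% higher and 34.8% lower). In control mice the same 9 were called in the same directions, where 78.1% of probe sets were called (42.9% higher and 35.2% lower). Signals of kidneys and livers did not overlap for 8 of the 9 probe sets in either treatment group, 7 of them higher in kidney. Over all probe sets, kidneys lay above every liver for 26.3% in PB mice and 24.9% in control mice, and below every liver for 19.0% in PB mice and 17.6% in control mice. The exception was the second Cyp24a1 probe set, for which 8 of 10 PB kidneys lay above every PB liver and 9 of 10 control kidneys above every control liver.

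Cyp2r1 (chr7:114550123-114563048), the main 25-hydroxylase of the liver, was the member found in liver. Its signal ran from 234.5 to 334.6 with a median of 254.6 in PB livers, and from 183.5 to 301.8 with a median of 234.5 in control livers. The groups overlapped, with 3 PB livers above every control liver and 9 of 10 PB livers above the control median. PB livers averaged 272 ± 38.4 and control livers 230 ± 32.9 (SD, n = 10 each), a log2 fold change of 0.24 ± 0.09 (SE; 95% interval 0.06 to 0.42). This did not pass the test in limma over 18981 probe sets (unadjusted p = 0.0130, adjusted p = 0.0808). It did so when control animal 7, which had the highest control signal, was left out (log2 fold change 0.28, limma adjusted p = 0.0267). Over all settings that leave out 1 animal the adjusted p in limma lay between 0.0267 and 0.140. In 1 limma fit of all 40 arrays the unadjusted p was 0.158 and the adjusted p 0.349. Cyp2r1 was the 1 member probe set tested in liver, where 12.3% of probe sets were called (5.88% higher and 6.43% lower with PB) and 12.5% were higher at an unadjusted p under 0.05 (14.4% lower). In kidney its signal stayed at 6.4 to 11.3 in PB animals and 4.1 to 14.4 in controls, so that the kidney level was at least 5.43-fold lower than liver in PB mice and at least 4.61-fold lower in control mice. These bounds, and those given for the other members, set the group under the level of 50 to 50.

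Cyp27b1 (chr10:127048246-127054884), which makes the active hormone, was a weakly measured kidney transcript. PB kidneys ran from 32.0 to 131.1 with a median of 53.9, and control kidneys from 51.0 to 177.5 with a median of 73.7. The 3 lowest kidneys were of PB animals, 7 of 10 PB kidneys lay below the control median, and the groups otherwise overlapped. PB kidneys averaged 63.1 ± 30.0 and control kidneys 86.4 ± 37.0 (SD, n = 10 each), a log2 fold change of -0.49 ± 0.23 (SE; 95% interval -0.97 to -0.01) that did not pass the test (limma, unadjusted p = 0.0472, adjusted p = 0.271). The highest Cyp27b1 signal of the PB kidneys, in animal 13, was above 9 of the 10 control kidneys, and 7 of 10 PB kidneys and 10 of 10 control kidneys reached 50. In liver every signal was at or under 13.2 in PB animals and at or under 23.0 in controls, which puts kidney at least 1.26-fold higher in PB mice and at least 1.73-fold higher in control mice.

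Cyp24a1 (chr2:170482957-170497145), the 24-hydroxylase that degrades the hormone and a sensitive target of VDR, varied more between animals in kidney, by its stronger probe set, than any other member. This probe set ran from 67.0 to 585.7 with a median of 219 in PB kidneys and from 125.6 to 1259 with a median of 390 in control kidneys. The 2 lowest kidneys were of PB animals 12 and 11, and 9 of 10 PB kidneys lay below the control median, while the PB kidney of animal 20 lay above 6 of the 10 control kidneys. The highest kidney stood 8.74-fold above the lowest in PB animals and 10.0-fold in controls. On the log2 scale the SD among animals was 0.87 in PB kidneys and 1.18 in control kidneys, and of the 19229 probe sets tested in kidney 99.4% had a smaller one in PB kidneys and 99.7% in control kidneys. The median probe set had an SD of 0.18 in PB kidneys and 0.17 in control kidneys.

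PB kidneys averaged 241 ± 146 and control kidneys 518 ± 385 for this probe set (SD, n = 10 each). The log2 fold change was -0.93 ± 0.41 (SE; 95% interval -1.77 to -0.08), equal to 1.90-fold lower geometric signal, and did not pass the test (limma, unadjusted p = 0.0324, adjusted p = 0.231). Over the settings that leave out 1 animal the log2 fold change stayed between -1.11 and -0.74 and the adjusted p between 0.135 and 0.346. The weaker probe set averaged 41.8 ± 19.2 in PB kidneys and 100 ± 76.8 in control kidneys, with a log2 fold change of -0.84 ± 0.45 (limma, unadjusted p = 0.0778, adjusted p = 0.342). Its signals followed those of the first over the 20 kidneys, with a Pearson r of 0.86 and a Spearman rho of 0.89 between log2 signals after the group means were taken off. In control animal 3 the weaker probe set gave 7.1, although the stronger one gave 132.1. In liver no signal of either probe set exceeded 27.8 in PB animals or 27.2 in controls. By the stronger probe set kidney was at least 4.83-fold higher than liver in PB mice and at least 10.4-fold higher in control mice.

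Vdr (chr15:97854427-97908296), the receptor of the hormone, was steady in kidney. By the probe set with the lower mean PB kidneys ran from 648.9 to 816.4 with a median of 690, and control kidneys from 625.7 to 809.1 with a median of 668. By the one with the higher mean PB kidneys ran from 643.9 to 1007.4 with a median of 732, and control kidneys from 653.5 to 825.4 with a median of 748. The kidney of PB animal 15 was the highest for both probe sets, and the remaining ranges overlapped almost fully. The log2 fold changes were 0.01 (95% interval -0.10 to 0.12; adjusted p = 0.928) and -0.03 (95% interval -0.17 to 0.11; adjusted p = 0.858) in limma, so that a change beyond 0.889-fold or 1.09-fold lay outside both intervals. Livers showed Vdr signals of up to 31.5 in PB animals and 27.0 in controls. Kidney was at least 14.7-fold higher than liver in PB mice and at least 14.9-fold higher in control mice by the probe set with the higher mean.

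Kl (chr5:150952607-150993817), the FGF23 co-receptor, was measured by a strong and a weak probe set. By the strong one PB kidneys ran from 2729 to 4165.8 with a median of 3444, and control kidneys from 3355.9 to 3869 with a median of 3701. The PB kidneys held the highest value and the 3 lowest, and the log2 SD was 0.17 in PB kidneys and 0.07 in control kidneys, where 2.96% of probe sets had a smaller one. The log2 fold change was -0.08 ± 0.06 (SE; 95% interval -0.19 to 0.04; limma adjusted p = 0.490). By the weak one PB kidneys averaged 62.6 ± 8.86 and control kidneys 73.4 ± 7.86 (SD, n = 10 each), with 4 PB kidneys below every control kidney. The log2 fold change was -0.24 ± 0.09 (SE), which did not pass the test either (limma, unadjusted p = 0.0158, adjusted p = 0.163). Over the 20 kidneys the probe sets hardly moved together (Pearson r 0.11, Spearman rho 0.0015). By the strong probe set kidney was at least 69.6-fold higher than liver in PB mice and at least 73.0-fold higher in control mice.

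S100g (chrX:162961992-162964599), the calbindin-D9k gene and a vitamin D target in intestine, was close to the floor of the array in liver and abundant in kidney. PB kidneys ran from 4174.3 to 5513.5 with a median of 4859, and control kidneys from 3930.4 to 5611 with a median of 4550. The groups overlapped throughout, with 7 of 10 PB kidneys above the control median and none above every control. The log2 fold change was 0.05 ± 0.06 (SE; 95% interval -0.07 to 0.17; limma adjusted p = 0.699). Livers gave 1.0 to 4.2 in PB animals and 1.3 to 6.0 in controls, and kidney was at least 95.6-fold higher than liver in PB mice and at least 92.4-fold higher in control mice. The value of 6.0 came from control animal 5, the liver with the high Kap signal, whose part in the S100g signal was not tested.

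**Figure D2:**
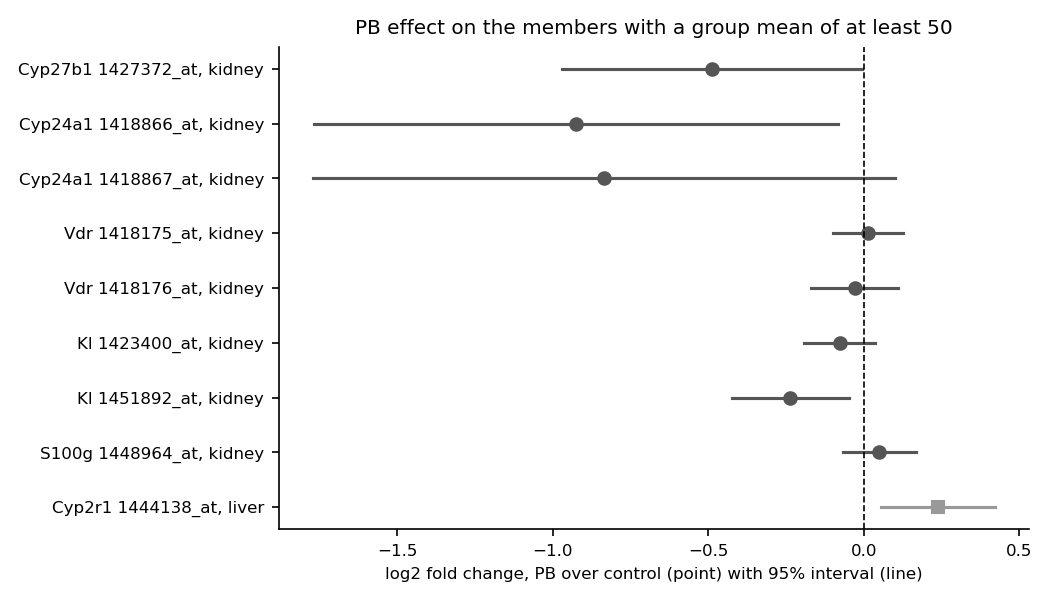
Log2 fold change of PB over control with its 95% interval for the 8 probe sets tested in kidney (circles) and the 1 tested in liver (square). The Cyp24a1 and Cyp27b1 estimates lie between -0.93 and -0.49, those of Vdr, S100g and the strong Kl probe set between -0.08 and 0.05, and Cyp2r1 in liver at 0.24.

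Over the kidney members, 0 of 8 probe sets were called with PB by limma, where 3.26% of 19229 probe sets were (1.79% higher and 1.47% lower). At an unadjusted p under 0.05 there were 3 of 8, all lower with PB (Cyp24a1 by its stronger probe set, Cyp27b1, and Kl by its weak one), where 8.3% of all probe sets were lower and 9.63% higher. This count was 1 (Kl by its weak probe set) without PB animal 11 or 12 or control animal 4, 7 or 10. It was 2 without PB animal 14, 17 or 18 or control animal 2, 5, 8 or 9, and 4 without PB animal 20 or control animal 3. With 1 animal left out, 3092 to 3916 of all 19229 probe sets had such a p. The methods' t-test called 0 of 8 as well on log2 or linear signal. Under an unadjusted p of 0.05 it had 1 and 3 of 8, where 3394 and 3425 of all probe sets were. The unadjusted member count was 1 with robust eBayes or Welch's t and 2 with the submitters' description number in the model. It was 0 in 1 fit of all 40 arrays and 4 with a floor of 20. In the settings of these last 4 counts, 2040 to 3449 of all 19229 probe sets had such a p. The difference of the PB effect between kidney and liver was called for 0 of 9 member probe sets, and for 6.21% of 21866 probe sets. At an unadjusted p under 0.05 it was 0 of 9, where 10.5% of probe sets had a higher and 8.79% a lower effect in kidney. With signals under 20 raised to 20 it was 3 of 9 (both Cyp24a1 probe sets and Cyp2r1), with a floor of 50 it was 4 of 9 (Kl by its weak probe set as well), and with an offset of 16 it was 2 of 9 (both Cyp24a1 probe sets), each with a lower effect in kidney. In these settings 4539, 4717 and 4426 of all 21866 probe sets, in that order, had such a p in either direction. The member count was 1 of 9 without PB animal 20 or control animal 3 or 9, where 4063, 4000 and 4234 of all probe sets had one. For Cyp24a1 by its stronger probe set that difference was -0.75 with a 95% interval of -2.10 to 0.61 on the log2 scale. The liver side of these differences lay under 50 in every animal for every member but Cyp2r1, whose kidney side did. With a floor of 50 that side is the same value in every animal, as is the kidney side of Cyp2r1 with a floor of 20. The difference is then the PB effect of the other tissue alone, with its sign turned for Cyp2r1. Such counts cannot test a difference between tissues. Tissue RNA was measured in bulk, and fewer cells of a type cannot be told apart from less RNA per cell.

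Which members moved together from animal to animal was asked for the 5 kidney members over the 20 kidneys, with the treatment means taken off the log2 signals and the probe set of each gene with the higher mean (10 pairs). The pair with the highest correlation was Kl and S100g, both known from the distal nephron (Pearson r = 0.63, permutation p = 0.00179, adjusted p = 0.0179; Spearman rho = 0.60, adjusted permutation p = 0.0702). Without the 2 kidneys farthest from the median of Kl, r was 0.45. Within PB kidneys r was 0.84 and within control kidneys 0.35. Kl and S100g gave r = 0.55 and no pair had an adjusted permutation p under 0.05 when PB animal 15, the kidney with the highest Kl signal, was left out, so that the relation rests in part on that animal. The summed signal of the 6 distal tubule markers correlated with Kl (r = 0.77) and with S100g (r = 0.72) over the same 20 kidneys, and the array median with Kl (r = -0.70) and S100g (r = -0.43). Calb1, 1 of these markers, is also among the VDR targets listed below. The sum of the collecting duct markers went the other way (r = -0.44 with Kl and -0.52 with S100g). For the proximal tubule sum r was 0.40 with Kl and 0.24 with S100g. For the thick ascending limb sum r was -0.19 and -0.30. The part of cell makeup and array in the relation was not tested.

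Next came Cyp24a1 with Vdr (r = 0.51, rho = 0.57, adjusted permutation p = 0.0697), Vdr with Kl (r = 0.50, rho = 0.27, adjusted permutation p = 0.159) and Cyp24a1 with Kl (r = 0.49, rho = 0.45, adjusted permutation p = 0.0676), and none of these passed the adjustment. Without the 2 kidneys farthest from the median of Cyp24a1 its r was 0.46 with Vdr and 0.47 with Kl, whereas Vdr with Kl had an r of 0.16 without the 2 farthest from the median of Vdr. Cyp24a1 and Vdr gave r = 0.27 within PB kidneys and 0.82 within control kidneys. The relation of Cyp24a1 with Kl was seen in PB kidneys (r = 0.90) and not in control kidneys (r = -0.01), and neither difference between groups was tested. By the Vdr probe set with the lower mean, chosen after its values were seen, Cyp24a1 and Vdr correlated more closely (r = 0.83, rho = 0.84), and did so in PB kidneys (r = 0.76) and in control kidneys (r = 0.86). The PB kidneys with the lowest Cyp24a1 signals, 67.0 in animal 12 and 98.9 in animal 11, also had the lowest Vdr signals of their group by this probe set, 648.9 and 661.7. The control kidneys with the 3 highest Cyp24a1 signals, in animals 7, 10 and 4, had the 3 highest Vdr signals of theirs, 805.5, 751.4 and 809.1. Cyp27b1 did not correlate with Cyp24a1, Vdr, Kl or S100g beyond an r of 0.34 in size, and each adjusted permutation p was at least 0.205.

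**Figure D3:**
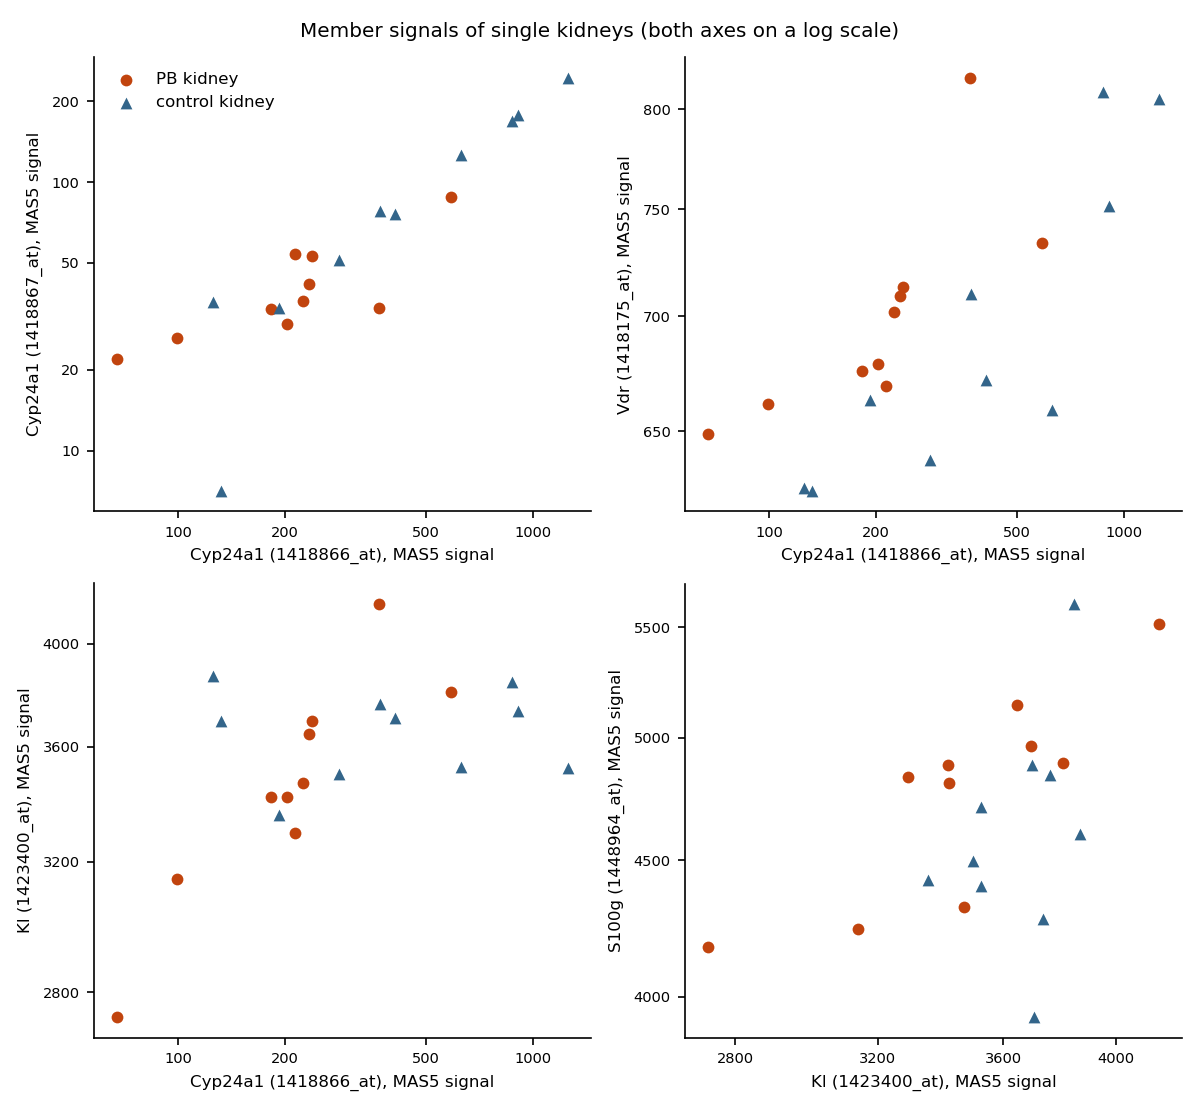
Signals of single kidneys on log axes, PB kidneys as circles and control kidneys as triangles, for the Cyp24a1 probe sets, for Cyp24a1 with Vdr (probe set with the lower mean), for Cyp24a1 with Kl and for Kl with S100g. The Cyp24a1 probe sets rise together (r = 0.86), and Kl follows Cyp24a1 among PB kidneys (r = 0.90) but not among control kidneys (r = -0.01).

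The genes whose kidney signals were most like those of Cyp24a1, over the same 20 kidneys and among 10081 other named genes, were Igsf5 (r = 0.83), Vdr by its probe set with the lower mean (r = 0.83) and the organic cation transporter gene Slc22a4 (r = 0.81). Those most like Kl were Iah1 (r = 0.85), the mitochondrial kinase gene Pink1 (r = 0.84) and the glycosyltransferase gene Mgat3 (r = 0.84). Those most like Vdr by its other probe set were the serine hydroxymethyltransferase gene Shmt2 (r = 0.80), the dicarboxylate transporter gene Slc13a3 (r = 0.79) and the pyruvate carboxylase gene Pcx (r = 0.78). For S100g they were Qdpr, Rfng and Ces1d (r = 0.75 to 0.77) and for Cyp27b1 Rit1, Ap1g1 and Csgalnact1 (r = 0.74 to 0.77). Over the 20 livers and among 9975 genes, Lamp2, a lysosomal membrane protein gene, and Commd1 were most like Cyp2r1 (r = 0.79 each), followed by Mycbp (r = 0.76). These correlations describe the arrays and carry no test.

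Genes known to work with the members were taken as 6 lists, each gene standing by its strongest probe set. In kidney 1 of the listed genes was called, the chromatin remodelling gene Baz1b, which averaged 463 ± 59.4 in PB kidneys and 373 ± 57.2 in control kidneys (SD, n = 10 each; log2 fold change 0.32, limma adjusted p = 0.0441). It was 1 of the 8 VDR partners and cofactors tested. None of the 5 other hydroxylases and precursor enzymes, 9 calcium and magnesium transport genes, 13 FGF23-Klotho and phosphate genes, 7 genes of binding protein uptake and the albumin family, or 6 other VDR targets was called in kidney, where 2.17% of 10083 genes were called higher and 1.57% lower. At an unadjusted p under 0.05 there were 0, 0, 1, 1 and 1 genes in these lists, in that order. Over all probe sets tested in kidney, 9.63% were higher and 8.3% lower at such a p. List medians of the log2 fold change lay between -0.06 and 0.05, beside 0.01 over all genes.

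Of the strongest kidney genes of these lists, Cyp27a1, a mitochondrial hydroxylase that can also act on vitamin D, averaged 337 ± 36.1 in PB kidneys and 321 ± 29.7 in control kidneys. The phosphate transporter gene Slc34a1, a target of FGF23 action, averaged 8311 ± 724 in PB kidneys and 8784 ± 1081 in control kidneys. The kallikrein gene Klk1 averaged 9957 ± 1085 in PB kidneys and 10386 ± 1473 in control kidneys. Lrpap1, a chaperone of the megalin receptor that takes up the vitamin D binding protein, averaged 7456 ± 692 in PB kidneys and 8027 ± 1021 in control kidneys. Calb1, the calbindin-D28k gene, averaged 4284 ± 400 in PB kidneys and 4367 ± 381 in control kidneys by its strongest probe set, while a weak one (84.7 in PB kidneys and 52.1 in control kidneys) was called higher (log2 fold change 0.72, limma adjusted p = 0.00363).

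In liver 5 of the listed genes were called, where 6.45% of 9976 genes were called higher and 7.72% lower. Cyp3a13, of the P450 family whose members can oxidise vitamin D in people, was the 1 of 6 hydroxylases and precursor enzymes that rose by its strongest probe set, with 2111 ± 296 in PB livers and 1360 ± 206 in control livers (log2 fold change 0.64, limma adjusted p = 2.37e-05), every PB liver lying above every control liver. By weaker probe sets Sc5d, an enzyme gene of sterol synthesis in the same list, was called higher as well (1530 in PB livers and 986 in control livers, log2 fold change 0.70, limma adjusted p = 0.00482, and 160 in PB livers and 98.2 in control livers, log2 fold change 0.72, limma adjusted p = 0.000774), but not by its strongest (limma adjusted p = 0.163). Cyp3a11 averaged 20568 ± 2440 in PB livers and 19641 ± 2219 in control livers and was not called. Among 9 VDR partners Rxra, the liver's main retinoid X receptor gene, fell slightly (710 ± 60.2 in PB livers and 848 ± 128 in control livers, log2 fold change -0.25, limma adjusted p = 0.0288).

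Of 12 FGF23-Klotho and phosphate genes tested in liver, Egr1, an immediate early gene used as a readout of FGF23 signalling in kidney and induced by many other stimuli, fell to 174 ± 97.1 in PB livers, against 1265 ± 605 in control livers (log2 fold change -2.76, limma adjusted p = 2.63e-05). In kidney Egr1 averaged 113 ± 45.0 with PB and 307 ± 324 in controls (limma adjusted p = 0.135). Of 6 VDR targets the cell cycle inhibitor gene Cdkn1a (log2 fold change -2.40, limma adjusted p = 4.37e-05) and the manganese exporter gene Slc30a10 (log2 fold change -0.46, limma adjusted p = 0.0210) fell in liver. All 10 PB livers lay below every control liver for Cdkn1a. The share of all genes that separate in this way is not given here. The separation of Cdkn1a, of Cyp3a13 above and of Stab2 below can therefore not be read as rare. None of 4 calcium transport genes and none of 4 genes of the uptake and albumin list was called in liver, with 1 and 0 at an unadjusted p under 0.05. Over all probe sets tested in liver, 12.5% were higher and 14.4% lower at such a p. The strongest liver genes of these lists were the calcium pump gene Atp2b1 (197 ± 26.0 in PB livers and 222 ± 36.2 in control livers) and Alb (18940 ± 2907 in PB livers and 19890 ± 2998 in control livers). List medians in liver ranged from -0.36 for the VDR targets to 0.09 for the hydroxylases, beside -0.02 over all genes.

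Vdr itself was under 50 in every liver, and the receptor is known from non-parenchymal liver cells more than from hepatocytes. Of 7 stellate cell and fibroblast markers tested in liver, 4 were called lower with PB (Lrat, Des, Dcn and Reln), where 7.72% of all genes were, with a summed signal of 2779 to 3776 in PB livers and 3128 to 4232 in control livers. Also lower were 1 of 4 endothelial markers (Stab2, with all 10 PB livers below every control liver), 1 of 6 Kupffer cell and macrophage markers (C1qa) and 1 of 7 hepatocyte markers (Fgb). Cdh5 (log2 fold change 0.27) and Egfl7 (0.04) of the endothelial markers, and Adgre1 (0.17) of the macrophage markers, lay higher with PB without a call. So did Col3a1 (0.04) of the stellate cell and fibroblast markers and Tat (0.11) of the hepatocyte markers. Ngfr (-0.25) and Colec11 (-0.12) of the stellate cell and fibroblast markers lay lower without a call. By any probe set, 1 of the endothelial markers was called higher in liver as well. The part of these cell types in the liver differences was not tested. In kidney 0 of 8 proximal tubule, 0 of 4 thick ascending limb and 0 of 6 distal tubule markers were called by their strongest probe sets, and the summed proximal tubule signal ran from 49240 to 63140 in PB kidneys and from 47851 to 69236 in control kidneys. Of 5 collecting duct markers Aqp3 was called higher (514 ± 56.6 in PB kidneys and 406 ± 41.1 in control kidneys, limma adjusted p = 0.00505). An unadjusted p under 0.05 was found for 3 of 5, where 9.63% of all kidney probe sets were higher and 8.3% lower. The summed collecting duct signal ran from 1569 to 2702 in PB kidneys and from 1391 to 2490 in control kidneys. Of 4 podocyte markers Podxl was called higher (426 ± 31.8 in PB kidneys and 371 ± 32.6 in control kidneys, limma adjusted p = 0.0465), and the summed signal ran from 585 to 763 in PB kidneys and from 530 to 644 in control kidneys. The part of these segments in the members' kidney values was not tested.

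**Figure D4:**
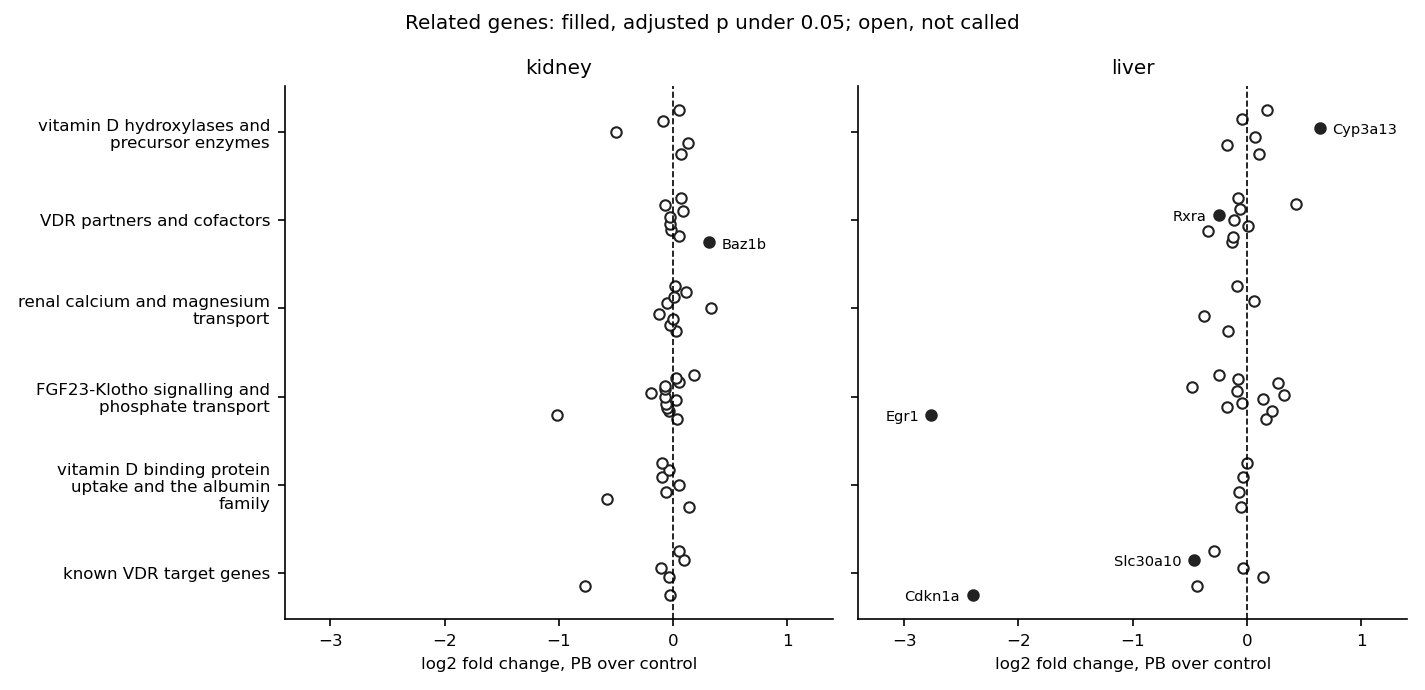
Log2 fold change of PB over control for the genes of the 6 lists in kidney (left) and liver (right), each gene by its strongest probe set, filled where the adjusted p was under 0.05. Baz1b is filled in kidney, and Cyp3a13, Rxra, Egr1, Slc30a10 and Cdkn1a in liver, where Egr1 and Cdkn1a lie at -2.76 and -2.40.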

How the data were processed

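Liver and kidney RNA of 20 mice was measured on 40 Mouse430_2 arrays. The deposited intensity values are MAS5 signals on a linear scale that the authors scaled to a trimmed mean of 150, with GCOS and MAS5 given as tools in the submitters' processing notes. The platform annotation gave names (34945 probe sets with 1 gene symbol, 932 with several, 9160 with none), and symbols were updated through RefSeq (34741 matched).

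Members and lists were chosen with earlier results of these data known. Signals below 1 were raised to 1 before log2. Probe sets reaching a mean of 50 in a group compared were tested with limma 3.58.1 (R 4.3.3; lmFit, eBayes with trend), two-sided and Benjamini-Hochberg adjusted over all of them. PB was compared with control on the 20 arrays of a tissue, and tissues and the difference of the PB effect on all 40. Correlations used 100000 permutations within treatment groups (Python 3.11.15, SciPy 1.17.1, NumPy 2.4.6, pandas 2.3.3, matplotlib 3.10.9). The fits were tested on simulated data. Named were all member probe sets, up to 3 genes called per list (otherwise the strongest), Cyp2b10, Cyp2c55 and Cyp3a11 as a treatment check, and the 3 genes most like each member. Cyp2c55 averaged 8805 in PB livers and 272 in control livers.

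Both tissues came from the same animals. Over 15416 probe sets the deviations of an animal's liver and kidney from their group means correlated with a median r of 0.0755 (-0.0740 to 0.211). Alternatives were a filter at 100 or none, floors of 20 and 50, an offset of 16, quantile normalization, median centring, robust eBayes, Student's and Welch's t, the submitters' description number in the model, 1 fit of all arrays, animal blocks and each animal left out. The 10 animals of a group are separate, and the precision is limited by how many there are.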

Additional observations from a re-analysis of the deposited data

Results flagged for a closer look

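Among 36 sets of 10 values (9 probe sets in 4 groups), 7 held a value set apart from the rest by more than Dixon's critical share of the whole range. Chance flags about 1 in 20 sets where the sets are independent and their values normally distributed. The values here are linear signals and the sets share animals, so the 7 cannot be set against that rate. All flagged values were the highest of their 10. In PB kidneys these were the 87.6 of the weaker Cyp24a1 probe set in animal 20, next to 54.0, and the highest Vdr signals, 816.4 and 1007.4 by its probe sets, both in animal 15, next to 733.8 and 743.5. In control kidneys it was the 177.5 of Cyp27b1 in animal 4, next to 113.3. In livers, all under 50, they were the signals of the Vdr probe set with the higher kidney mean, 16.8 in PB animal 13 and 18.6 in control animal 5, and the S100g signal of 6.0 in control animal 5.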

How the results depend on the processing

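The spread among animals leaves a wide interval for Cyp24a1 in kidney, and signals under 50 give bounds alone. Of the member probe sets, 0 were called for PB in kidney or for the difference between tissues under any alternative run. In liver the count of 0 became 1 without control animal 7 (Cyp2r1), so that leaving out 1 animal gave counts of 0 to 1. Between tissues 9 of 9 were called under all alternatives that tested 9, except that with a floor of 50 the weaker Cyp24a1 probe set was no longer called in PB mice (log2 difference 0.10, 8 of 9 called). The animal as a replicate block, fixed or random, left 9 of 9 called in both treatment groups and changed no other call.

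Signs turned where values lay near 0 or livers near the floor. With 1 animal left out, Vdr in kidney by its probe set with the lower mean ran from -0.012 to 0.038, and the difference of the PB effect ran from -0.072 to 0.36 for Vdr by its other probe set and from -0.12 to 0.19 for S100g. The difference for Cyp27b1 was -0.47, -0.34 and -0.021 with a floor of 20, a floor of 50 and an offset of 16. With a floor of 20 it was -0.038 for Vdr by the probe set with the lower mean, -0.030 by the other and -0.034 for Kl by the strong one. With a floor of 50 it was -0.030 for Vdr by the probe set with the higher mean and -0.077 for Kl. At that floor every liver of these members has the same value, so that the differences are the PB effects in kidney alone. Of 10 pairs, 1 passed in all kidneys, 2 in PB kidneys alone (Cyp24a1 with Kl, and Kl with S100g) and 0 in control kidneys alone. Chosen after seeing the data, leaving out PB animal 15 left 0, and the other Vdr probe set gave 5. With any probe set of a listed gene, 9 genes in place of 5 were called in liver and 2 in place of 1 in kidney. The share of all genes called by any probe set was not computed, so these counts cannot be read as high or low. The cause was not tested.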
